A study of Mus musculus with 2 samples.

Results

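The 118 cytochrome P450 and UDP-glucuronosyltransferase genes of the mouse were mostly closed in the newborn bladder: 22 of them (18.6%) had a DNase I peak at a start site in both replicates, against 62.3% of all protein-coding genes. Members were all protein-coding genes of the GENCODE annotation whose symbol follows the Cyp or Ugt family pattern, except Cyp26a1 and Cyp26b1, and they made up 118 of 21938 genes. Of these, 97 were Cyp genes and 21 were Ugt genes, and 88 lay in 10 tandem clusters, that is runs of at least 3 members of 1 family number with less than 300 kb between successive gene bodies. The rule for members used symbols only and no measured value, but it was set with earlier results of these data known.

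DNase-seq maps open chromatin: the enzyme DNase I cuts DNA that is not wrapped in nucleosomes, and the cut sites are sequenced. The series held urinary bladder tissue from female B6CASTF1/J mice aged 4 days, which carry 1 genome from C57BL/6J and 1 from CAST/EiJ, with no treatment named in the labels. The single group had 2 biological replicates; the females are numbered separately in the labels but share a donor identifier. With no second group there is no contrast to test, so values are given per replicate, beside the same measure over all 21938 protein-coding genes. Coordinates are in mm10, 1-based.

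Cytochrome P450 enzymes are haem proteins that insert an oxygen atom into their substrates. Families such as Cyp2 and Cyp3 oxidize drugs, plant compounds and pollutants, above all in the liver, whereas other families make and break down sterols, steroid hormones, vitamin D, retinoic acid and fatty acid mediators. UDP-glucuronosyltransferases couple glucuronic acid to bilirubin, hormones and oxidized foreign compounds so that these can be excreted in bile and urine. The bladder is exposed to the products in urine, and its lining can activate some of them, such as aromatic amines.

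Promoter peaks of 3 members are shown first: Cyp46a1 and Cyp4f13, which had the tallest promoter peaks of the set, and Cyp4b1, a lower one. Each is the upstream part of the peak shared by both replicates, read 5′ to 3′ on the strand of the gene, with capitals where a DNase I footprint of 1 replicate overlaps one of the other. The capitals cover the full extent of both footprints, so some capital bases are footprinted in 1 replicate alone. Footprints are short stretches, listed by the authors, that are protected from cutting inside open DNA. The Cyp46a1 peak lay at chr12:108334121-108334200 on the plus strand and the Cyp4f13 peak at chr17:32947403-32947560 on the minus strand, both between genes. The Cyp4b1 sequence, from a Cyp gene known for activating aromatic amines in lung and bladder, covers chr4:115647724-115647855 on the minus strand.
Cyp46a1: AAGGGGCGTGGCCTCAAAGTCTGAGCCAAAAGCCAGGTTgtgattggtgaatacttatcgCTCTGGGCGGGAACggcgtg
Cyp4f13: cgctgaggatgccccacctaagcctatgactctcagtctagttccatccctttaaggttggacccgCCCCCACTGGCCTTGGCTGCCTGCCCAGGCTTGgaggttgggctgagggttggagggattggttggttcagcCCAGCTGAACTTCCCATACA
Cyp4b1: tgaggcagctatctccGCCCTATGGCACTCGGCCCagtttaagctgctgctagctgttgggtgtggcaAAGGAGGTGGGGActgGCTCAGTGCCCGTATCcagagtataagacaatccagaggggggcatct

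The Cyp4f16 and Cyp4f37 promoters are shown because they are near copies with unequal peaks. The first sequence is the Cyp4f16 promoter peak up to the start site (chr17:32536381-32536557, plus strand) and the second is its aligned stretch before the most upstream start site of Cyp4f37 (chr17:32621078-32621252, plus strand), from 231 to 57 bases before that site. Capitals mark bases that differ or are missing in the other copy.
Cyp4f16: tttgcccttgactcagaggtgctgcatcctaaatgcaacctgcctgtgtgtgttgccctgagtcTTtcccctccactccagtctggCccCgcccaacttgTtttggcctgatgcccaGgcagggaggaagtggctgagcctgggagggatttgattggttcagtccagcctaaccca
Cyp4f37: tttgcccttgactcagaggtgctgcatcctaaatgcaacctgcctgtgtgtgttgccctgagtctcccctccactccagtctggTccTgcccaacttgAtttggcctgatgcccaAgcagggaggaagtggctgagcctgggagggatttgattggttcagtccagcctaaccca
The stretches differed by 4 substitutions and 2 gap bases, and over the 1001-base windows around the start sites the local alignment had 95.5% identity over 956 columns. A peak overlapped the Cyp4f16 stretch in both replicates, in the looser and in the stricter list, and no peak of either list overlapped the Cyp4f37 stretch in any replicate. Of the 32-base words in these stretches, 57.5% of those of Cyp4f16 and 56.9% of those of Cyp4f37 were absent from the other copy, and only reads over such words can be told apart by sequence. The sources used here do not say how reads that match both copies were placed, and the part of this in the difference was not tested.

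The 100 bases before the most upstream start site of 6 further members are printed to compare the sequence at open and closed promoters. This stretch is set by the start site and need not lie in the peak. CpG dinucleotides, GC boxes (GGGCGG, either strand) and TATA boxes (TATAAA, either strand) are in capitals. The first 3 genes were open in both replicates: Cyp20a1 (chr1:60343223-60343322, plus strand), Cyp27a1 (chr1:74713474-74713573, plus strand) and Cyp2r1 (chr7:114562973-114563072, minus strand). The last 3 were closed in both: Cyp3a11 (chr5:145879965-145880064, minus strand), Cyp7a1 (chr4:6275634-6275733, minus strand) and Cyp2e1 (chr7:140763639-140763738, plus strand). The Cyp27a1 peaks ended at chr1:74713360, before its printed bases, and the replicate 1 peak of Cyp20a1 began at chr1:60343361, past its printed bases.
Cyp20a1: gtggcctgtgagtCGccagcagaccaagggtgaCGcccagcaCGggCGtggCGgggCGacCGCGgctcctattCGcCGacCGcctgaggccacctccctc
Cyp27a1: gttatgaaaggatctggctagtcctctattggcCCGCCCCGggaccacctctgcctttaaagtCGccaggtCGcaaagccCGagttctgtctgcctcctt
Cyp2r1: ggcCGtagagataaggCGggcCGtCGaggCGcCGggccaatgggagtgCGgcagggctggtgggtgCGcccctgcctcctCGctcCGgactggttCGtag
Cyp3a11: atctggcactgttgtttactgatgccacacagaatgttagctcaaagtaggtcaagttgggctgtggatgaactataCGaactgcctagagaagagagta
Cyp7a1: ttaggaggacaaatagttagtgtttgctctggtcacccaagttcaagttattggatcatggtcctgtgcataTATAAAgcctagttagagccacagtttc
Cyp2e1: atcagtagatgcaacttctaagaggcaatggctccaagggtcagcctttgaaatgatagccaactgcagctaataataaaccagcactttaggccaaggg
The 3 open examples hold 11, 5 and 11 CpG dinucleotides and the 3 closed ones 1, 0 and 0. Over all 22 open members this stretch held a median of 3 CpG dinucleotides (range 0 to 17), against 1 (range 0 to 4) over the 87 closed members.

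The authors deposited 2 peak lists per replicate, and the longer, looser one was used: it held 96518 peaks in replicate 1 and 122870 in replicate 2. Peak height is the authors' own signal value, and the sources used here do not state its scale. All heights were whole multiples of 0.00466 in replicate 1 and 0.00417 in replicate 2 (within 0.02 of a step), and the number of reads is not given. Markers fitted the tissue label in part: 5 of 5 smooth muscle genes and 4 of 4 fibroblast genes were open in both replicates, but 2 of 6 urothelial genes were, Upk1b and Upk3a. All 6 hepatocyte markers, Alb among them, lacked a promoter peak in both replicates, while the adrenal genes Nr5a1 (0.535 and 0.479) and Star (0.484 and 0.471) had low peaks in both. In bulk tissue, few cells with an open site and a weakly open site in many cells cannot be told apart.

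A gene counted as open where a listed peak touched a window reaching 500 bp to each side of 1 of its annotated start sites, and its height is that of its tallest such peak. Replicate 1 had a promoter peak at 25 members (21.2%, against 65.4% of all genes) and replicate 2 at 28 (23.7%, against 64.7%). No peak was present in either replicate at 87 members (73.7%), against 32.2% of all genes. The members' share of open promoters thus lay below the background in each replicate. Of the Cyp genes, 20 of 97 (20.6%) were open in both, and of the Ugt genes 2 of 21 (9.52%). None of the 87 closed members had a stretch with a listed false discovery rate in its promoter windows in either replicate, as was true of 6830 of the 7057 closed genes overall.

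Open members also had low peaks. Replicate 1 gave them a median height of 0.878 and replicate 2 one of 0.780, where all 13670 open genes had 2.57 and 1.87. Heights were greater in replicate 1 for 19 of the 22 members (86.4%) and for 93.1% of all open genes, and the offset between the libraries was of like size in both sets. The median log2 ratio of replicate 2 to replicate 1 was -0.35 for the members and -0.41 for all open genes. The peaks of the replicates overlapped at all 22 open members.

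**Figure D1:**
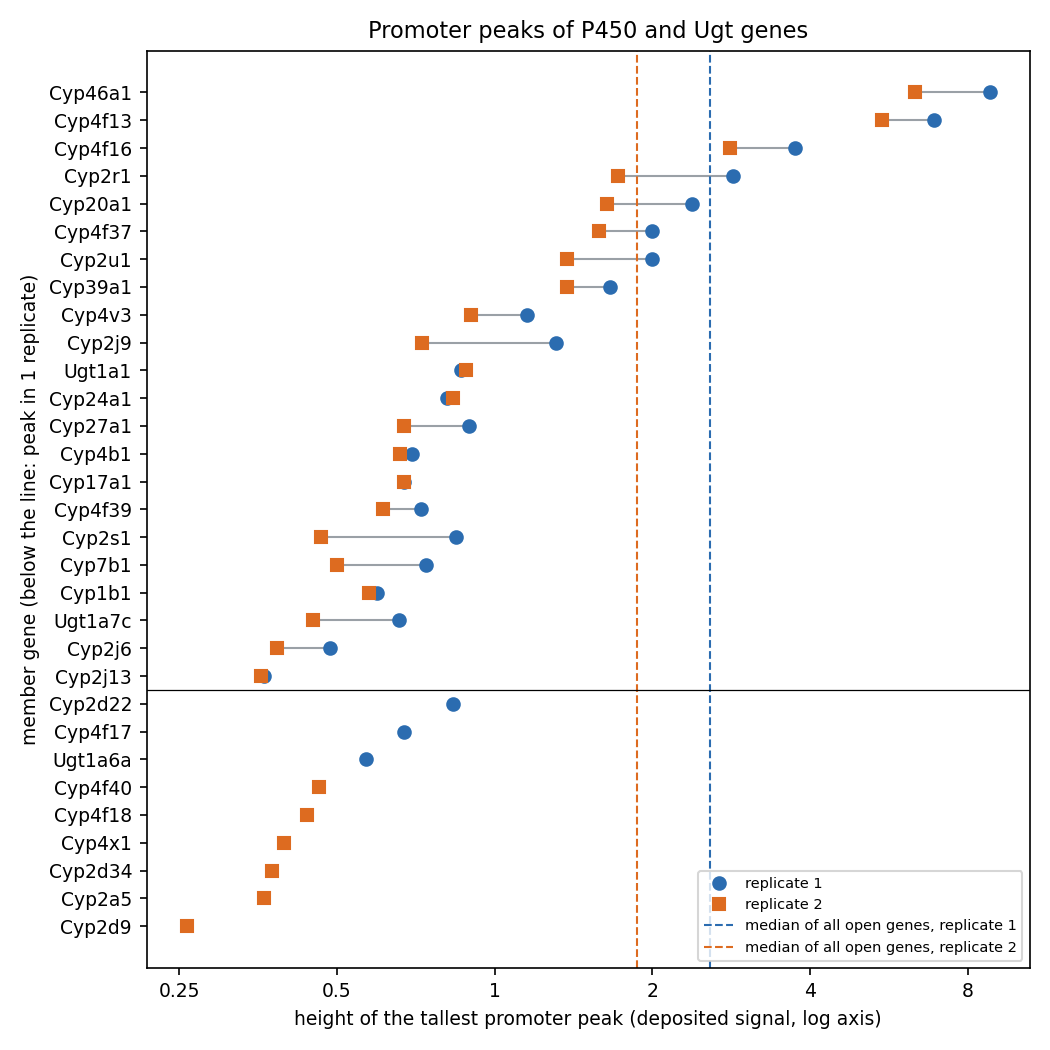
Height of the tallest promoter peak (authors' signal, log axis) of the 22 members open in both replicates and, below the line, of the 9 with a peak in 1 replicate. Circles are replicate 1, squares replicate 2, grey lines join the replicates and dashed lines are the medians of all open genes, 2.57 and 1.87. Cyp46a1, Cyp4f13 and Cyp4f16 lie to the right of both medians in both replicates.

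Genes of sterol and bile acid metabolism held the tallest peak of the set. Of these, 4 of 6 (66.7%) were open, close to the 62.3% of all genes. Cyp46a1 (ENSMUSG00000021259.5, chr12:108334381-108362234), which hydroxylates cholesterol for export from the brain, had heights of 8.80 and 6.33 in replicates 1 and 2 (7.56 ± 1.74, SD, n = 2). This was taller than 99.4% of all open genes. Cyp39a1, an oxysterol hydroxylase of bile acid synthesis, had 1.66 and 1.37. Its peak lay in an exon of the neighbouring Slc25a27, whose start site falls in the same window, so the peak cannot be assigned to 1 of these genes. Cyp27a1, the mitochondrial sterol hydroxylase of the alternative bile acid route, had 0.894 and 0.671, and Cyp7b1, the next enzyme of that route, had 0.740 and 0.50. The enzymes specific to the classical hepatic route had no peak: Cyp7a1, its rate-limiting step, and Cyp8b1, which sets the share of cholic acid.

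In vitamin D metabolism, 2 of 3 members were open, which with so few genes is also close to the share of all genes. Cyp2r1 (ENSMUSG00000030670.16), the main hydroxylase that turns vitamin D into its circulating form, had heights of 2.85 and 1.72 (2.29 ± 0.80, SD, n = 2). Cyp24a1, which breaks the hormone down, had 0.810 and 0.834, values that differed little between replicates. The Cyp24a1 peak had its centre in an intron of the neighbouring Pfdn4 in both replicates. Cyp27b1, which makes the active hormone chiefly in the kidney, was closed, as were the 3 kidney tubule markers.

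Steroid hormone synthesis had 1 open member of 6. Cyp17a1, needed for androgens and cortisol-type steroids, had heights of 0.671 and 0.671 at a start site of a retained-intron transcript 1.88 kb from its most upstream start site, which was not open in both replicates. Cyp11a1, which starts steroid synthesis, Cyp19a1, the aromatase, Cyp21a1, Cyp11b1 and Cyp11b2 had no promoter peak. Cyp26c1, the only retinoic acid hydroxylase kept in the set, was closed too, and Cyp20a1, an orphan P450 without a settled substrate, was open at 2.38 and 1.64.

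Among the 3 classical targets of the Ah receptor, which senses dioxins and polycyclic hydrocarbons, Cyp1a1 and Cyp1a2 were closed. Cyp1b1, the member of this family that acts mainly outside the liver, had heights of 0.596 and 0.575 at a start site of a transcript marked for nonsense-mediated decay, 1.41 kb inside the gene. With windows of 1000 bp, a taller peak was counted for Cyp1b1, with a mean height of 2.46.

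Fatty acid and eicosanoid enzymes, here all Cyp4 and Cyp2j genes, had 9 of 28 members open in both replicates, 4 in 1 replicate and 15 in none. Cyp4f13 (ENSMUSG00000024055.15, chr17:32924688-32947402), a member of the fatty acid omega-hydroxylase family, had heights of 6.89 and 5.49 (6.19 ± 0.99, SD, n = 2), higher than 97.4% of all open genes. Cyp4f16 had 3.75 and 2.81 (3.28 ± 0.66, SD, n = 2), and both values lay below those of Cyp4f13. Cyp4f37 had 1.99 and 1.58, but in an exon at a start site of a retained-intron transcript 13.4 kb from its most upstream one. Cyp4f39, an enzyme of skin barrier lipids, had 0.722 and 0.613 at an internal start site 39.4 kb downstream, and 0.615 and 0.580 at its most upstream one. Of these 4 open Cyp4f genes, only Cyp4f37 was not open at its most upstream start site in both replicates.

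Outside the Cyp4f group, Cyp4v3 had 1.15 and 0.901, and Cyp4b1 had 0.694 and 0.659. The Cyp2j genes encode epoxygenases of arachidonic acid, and Cyp2j9 had 1.31 and 0.725, Cyp2j6 had 0.484 and 0.384 and Cyp2j13 had 0.363 and 0.359. Cyp2j13 was the lowest of the open members. The Cyp4a genes, targets of PPARalpha in liver and kidney, had no peak, Cyp4a14 included.

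The enzymes of foreign compounds, here the Cyp2 genes outside Cyp2j and Cyp2r1 and all Cyp3 genes, had 2 of 49 members (4.08%) open in both replicates, 1 in replicate 1 alone, 3 in replicate 2 alone and 43 in none. Cyp2u1, grouped here by its symbol but known for hydroxylating long-chain fatty acids, had heights of 2.00 and 1.38. Cyp2s1, a P450 expressed mainly outside the liver, had 0.843 and 0.467. A window at 1 of the Cyp2s1 start sites also holds a start site of Gm26707. Closed members included Cyp3a11, the main Cyp3a enzyme of mouse liver, Cyp3a13, Cyp2e1, which oxidizes ethanol, Cyp2c29, and Cyp2b10, the classical target of the receptor CAR. The Cyp2c and Cyp3a clusters, with 14 and 8 members, had no open promoter in any replicate.

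Of the 21 Ugt genes, Ugt1a1 and Ugt1a7c were open. Ugt1a1 (ENSMUSG00000089960.1), which conjugates bilirubin, had heights of 0.861 and 0.880, and Ugt1a7c had 0.657 and 0.450. The Ugt1a1 peak is the first of a run of shared regions through its gene body, described below. The window of another Ugt1a7c start site, away from the Ugt1a7c peak, also holds a start site of Ugt1a6b. The Ugt2 genes, which conjugate steroids and odorants, were all closed, Ugt2b34 among them, and so were Ugt3a1 and Ugt3a2.

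Compared within each replicate, the order of heights from Cyp46a1 through Cyp4f13, Cyp4f16, Cyp2r1 and Cyp20a1 to Cyp4f37 was the same in both. Cyp4f37 and Cyp2u1 swapped places between the replicates, and so did Cyp4v3 and Cyp2j9. Taken over both libraries the ranges of neighbours overlapped for Cyp46a1 and Cyp4f13, for Cyp4f16 and Cyp2r1 and from there down to Cyp39a1, whereas Cyp4f13 and Cyp4f16, and Cyp39a1 and Cyp4v3, did not overlap.

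A peak in exactly 1 replicate was found at 9 of 118 members, 8 of them among the 88 in tandem clusters. Over all 21938 genes, 685 had a peak in replicate 1 alone and 526 in replicate 2 alone. In replicate 1 these were Cyp2d22 (0.833), Cyp4f17 (0.671) and Ugt1a6a (0.568), the last a transferase of phenols. In replicate 2 they were Cyp4f40 (0.463), Cyp4f18 (0.438), Cyp4x1 (0.396), Cyp2d34 (0.375), Cyp2a5 (0.363), known for oxidizing coumarin, and Cyp2d9 (0.258). Taken over all start sites of the gene, the windows of Cyp2d9, Cyp2d34 and Cyp4x1 each also held a start site of another gene or transcript locus. All 9 heights were below the median of open genes in the same replicate.

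In tandem clusters 11 of 88 members (12.5%) were open in both replicates, and outside them 11 of 30 (36.7%), against the 62.3% of all genes. Clusters differed widely. The Cyp2c cluster from Cyp2c55 to Cyp2c70 on chromosome 19 spanned 1180 kb with 14 closed members and 2 regions with a peak in both replicates, or 0.0169 per 10 kb, where the genome had 0.202 per 10 kb. The Ugt2 cluster from Ugt2b34 to Ugt2a1 on chromosome 5 had 10 closed members and no shared region in 601 kb. The Cyp3a cluster from Cyp3a57 to Cyp3a59 on chromosome 5 had 8 closed members and 2 shared regions in 768 kb, 0.0260 per 10 kb.

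The Cyp2d cluster from Cyp2d22 to Cyp2d26 on chromosome 15 had no member open in both replicates. It held 11 peaks in replicate 1 and 34 in replicate 2, yet only 1 shared region, so its replicate peaks were largely at different places. The Cyp2b23 to Cyp2t4 cluster on chromosome 7 had 1 of 8 members with a peak, Cyp2a5 in replicate 2, and 4 shared regions. The neighbouring cluster from Cyp2s1 to Cyp2a4 had 1 of 5 members open, Cyp2s1 itself, and 7 shared regions. On chromosome 4, the cluster from Cyp4x1 to Cyp4b1 had 1 of 10 members open, at its Cyp4b1 end, and that from Cyp2j13 to Cyp2j5 had 3 of 8.

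The Cyp4f cluster from Cyp4f39 to Cyp4f13 on chromosome 17 was the most open, with 4 of 8 members open in both replicates, 1 in each replicate alone and 2, Cyp4f14 and Cyp4f15, in none. Its span held 16 shared regions, 0.323 per 10 kb, and 4 other protein-coding genes, all of them open. Replicate 2 listed 41 peaks there and replicate 1 listed 19. The clusters of Cyp4f and of Ugt1a were the 2 with a density above that of the genome.

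**Figure D2:**
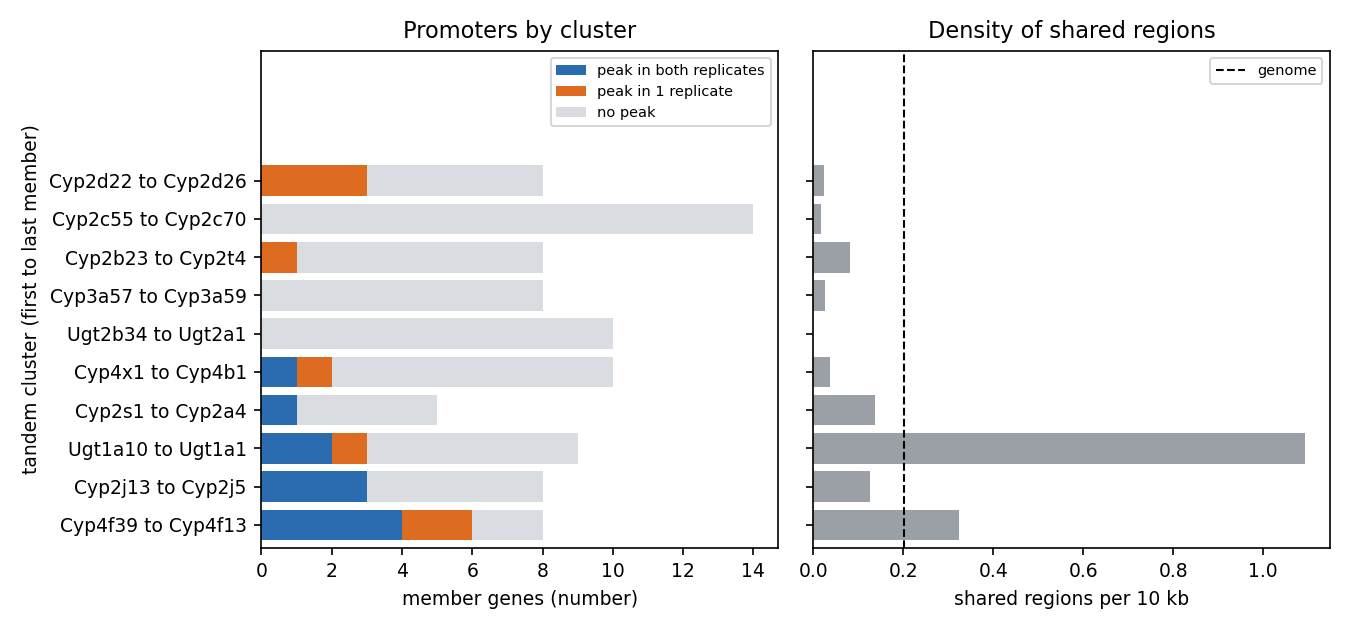
Left, members of each tandem cluster by promoter state (number of genes); right, regions with a peak in both replicates per 10 kb of the cluster, with the genome value of 0.202 as a dashed line. All 11 open members lie in the lower 5 clusters, and the Ugt1a cluster reaches 1.09 regions per 10 kb.

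The Ugt1a cluster on chromosome 1 is built from alternative first exons joined to common last exons, so that its genes share their 3′ end. From Ugt1a10 to Ugt1a1 it held 18 shared regions in 165 kb, 1.09 per 10 kb. Of these, 14 lay inside the 7.04 kb of Ugt1a1 (chr1:88211959-88218997), where they covered 54.9% of the bases at 19.9 per 10 kb. No other of the 17798 genes of at least 5 kb was as dense, and their median was 0.180 per 10 kb. Heights in this stretch ranged from 0.177 to 0.899 (median 0.524) in replicate 1 and from 0.242 to 1.2 (median 0.627) in replicate 2. Regions also followed the gene: 1 lay before the end of the cluster, and 20 more lay in the 20 kb past that end, into Mroh2a. The remaining 4 regions of the cluster were at Ugt1a7c, in an intron near Ugt1a6a, at Dnajb3 and past the end of Ugt1a1, and none lay at the first exons of Ugt1a10, Ugt1a9, Ugt1a8, Ugt1a5 or Ugt1a2.

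**Figure D3:**
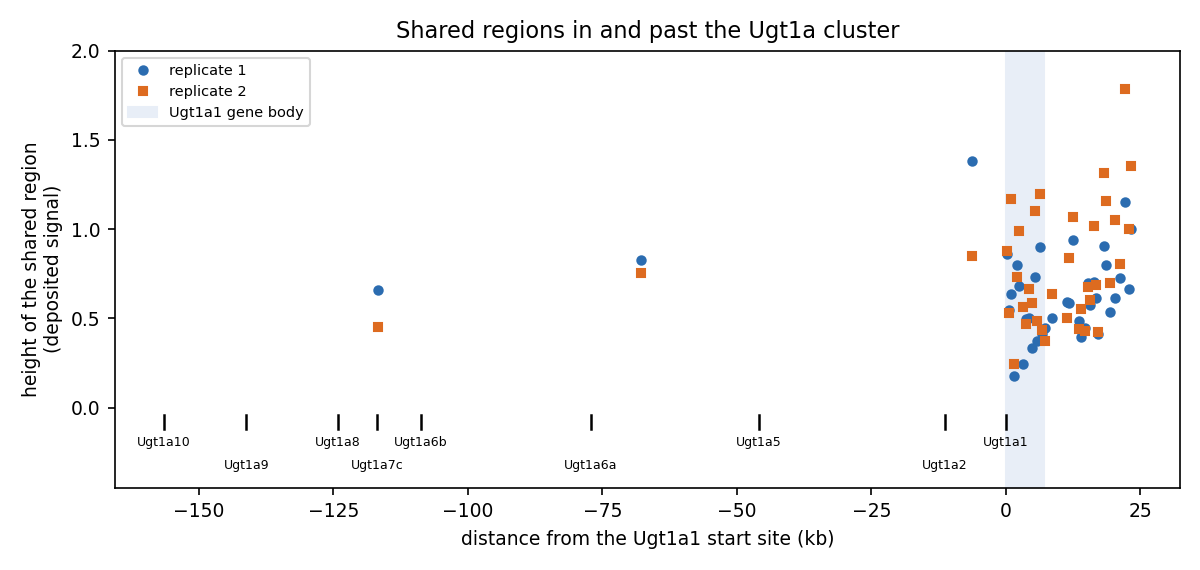
Height (authors' signal) of each region with a peak in both replicates against its distance from the Ugt1a1 start site (kb), for replicate 1 (circles) and replicate 2 (squares); ticks mark the start sites of the Ugt1a genes and shading the Ugt1a1 gene body. The plot shows 14 regions inside Ugt1a1, 1 between its end and the end of the cluster and 20 in the 20 kb past the cluster, and 3 lie before the gene.

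Distal regions were shared peaks more than 1000 bp from any start site and within 100 kb of the nearest protein-coding one. Of the members, 33 of 118 (28.0%) were nearest to at least 1 such region, against 43.7% of all genes. They had 55 regions, 17 with their centre in an exon, 15 in an intron and 23 between genes, with median heights of 0.680 and 0.625. Over all 53490 shared regions, which include those at start sites, the medians were 0.871 and 0.717. A median over the distal regions of all genes was not computed. Of the open members 11 of 22 had a distal region (27 regions in all), and of the closed members 20 of 87 (26 regions). The same split was not made over all genes, so this difference has no background to be set beside.

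The Ugt1a1 run gave that gene 8 distal regions. Cyp2s1 had 6, among them chr7:25848101-25848260, with heights of 2.84 and 2.55, which lay 31.3 kb from its start site between genes. Cyp39a1, Cyp21a1 and Cyp2f2, an enzyme of airway club cells, had 3 each, and the last 2 of these had no promoter peak. Cyp2d26, Cyp4f16, Cyp4f39 and Cyp11b2 had 2 each. Tall distal regions were also nearest to closed genes: 3.39 and 1.93 for Cyp2w1, in an intron of 3110082I17Rik, and 2.66 and 1.62 for Cyp2d26. Nearest is a matter of distance and does not assign the region to that gene.

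Promoters of the members were poor in CpG. In 500 bp on either side of the most upstream start site, the ratio of observed to expected CpG had a median of 0.150, against 0.552 over all genes. It was 0.471 over the open members and 0.131 over the closed ones. Inside clusters the open members had 0.25 and the closed ones 0.110, and outside them the values were 0.679 and 0.202. Set beside genes of like CpG content, members were open in 4 of 78 cases (5.13%) below a ratio of 0.2, where 10.8% of all genes were. The shares were 6 of 26 (23.1%) against 34.4% from 0.2 to 0.4, 5 of 7 (71.4%) against 75.4% from 0.4 to 0.6, and 7 of 7 against 94.3% above. Members were thus below all genes in the classes under a ratio of 0.4, though the class from 0.2 to 0.4 holds only 26. Many members are tandem copies and not separate cases. From 0.4 up each class holds 7 members, too few to tell their shares from those of all genes. Of the 4 open below 0.2, Cyp17a1 and Cyp4f37 were not open in both replicates at the most upstream start site, where the ratio was taken. Nor was Cyp1b1, counted as open in the class from 0.4 to 0.6. Such cases were not counted by class over all genes.

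Cyp4f13 and Cyp4f16 combined tall peaks with little CpG, at ratios of 0.240 and 0.0969. Of the 845 open genes with a ratio below 0.25, whose median height was 1.29, 14 (1.66%, Cyp4f13 included) had a mean height at least that of Cyp4f13 and 125 (14.8%) at least that of Cyp4f16. The ratio belongs to the most upstream start site and the height to the tallest peak at any start site. For Cyp4f13 and Cyp4f16 these were the same site, but for others of the 845 genes they may differ.

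Many members are tandem duplicates whose sequence recurs in the genome, and peaks can be called only where reads can be placed. Of the 32-base words in the window of 500 bp on either side of the most upstream start site, a median of 92.1% occurred once in the genome for the members. It was 100% for open and 87.8% for closed members. No member with less than 50% of such words was open (0 of 17), against 9.65% of all such genes. From 50% to 90%, 4 of 39 members were open (10.3%, against 36.9%), and at 90% or more, 18 of 62 (29.0%, against 70.2%). Of the 87 closed members, 39 had a window that was at least 90% unique. The part of read placement in the closed promoters was not tested.

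**Figure D4:**
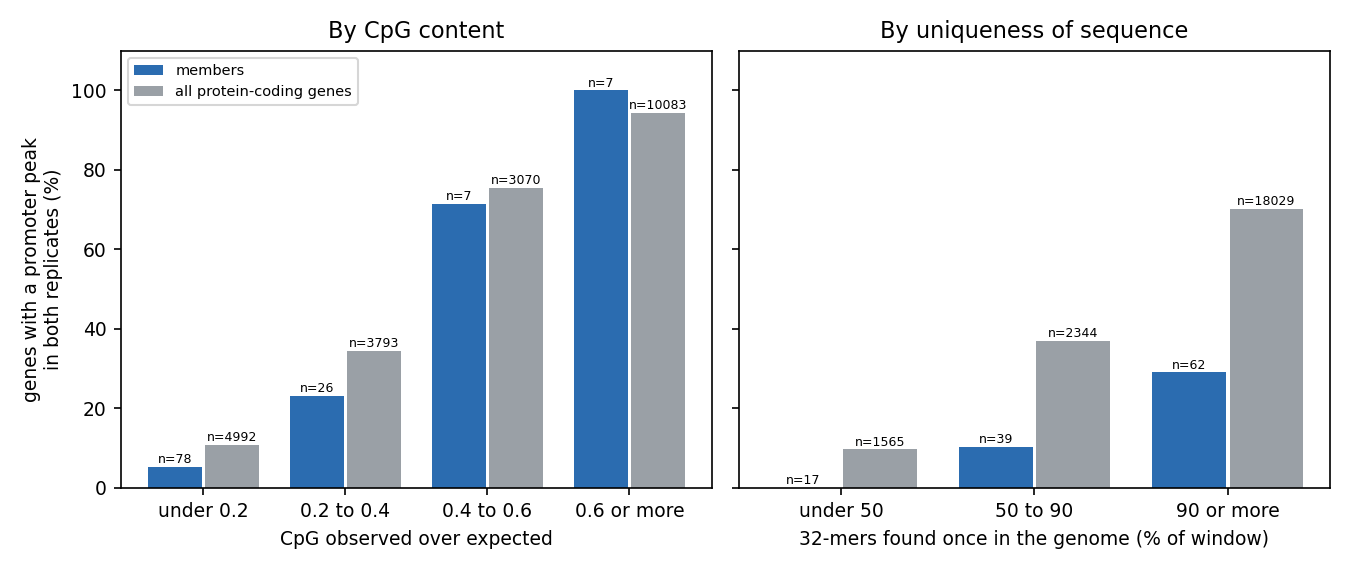
Share of genes with a promoter peak in both replicates (%), for the members (blue) and all protein-coding genes (grey), by the ratio of observed to expected CpG (left) and by the share of 32-base words found once in the genome (right); n is the number of genes in each class. The share open rises from class to class for members and for all genes in both panels. Members are lower in the CpG classes under 0.4 and in all 3 classes of uniqueness, and each CpG class from 0.4 up holds 7 members.

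Short motifs were searched on both strands from 250 bases before to 50 after the most upstream start site. A TATA box (TATAAA) was found at 0 of 22 open members and 31 of 87 closed ones (35.6%), against 7.21% of all open and 23.0% of all closed genes. Of these 31, 28 were among the 69 closed members of tandem clusters (40.6%), so many are not separate cases. Outside clusters, 3 of 18 closed members had one (16.7%), below the share of all closed genes. A GC box (GGGCGG), the site of Sp factors, was found at 13 open (59.1%) and 3 closed members (3.45%), against 60.6% of all open and 10.8% of all closed genes. The word CAAAGTCCA, bound by the liver factor HNF4, was at 0 open and 11 closed members (12.6%), against 0.271% of all open and 0.666% of all closed genes. Of these 11, 6 were Cyp2c genes of 1 cluster, 4 were Cyp3a genes of another and the last was Cyp8b1, so most are tandem copies and not separate cases. The AP-1 word TGANTCA was at 6 open (27.3%) and 7 closed members (8.05%), against 4.75% of all open and 10.7% of all closed genes. These too include tandem copies: Cyp4f16 and its near copy Cyp4f37 are among the 6, and most of the 7 were Ugt2 genes of 1 cluster. Cyp4f37 was counted as open but not at the start site searched here.

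Other words differed less. CCAAT was at 10 open (45.5%) and 40 closed members (46.0%), against 38.4% of all open and 41.0% of all closed genes. The antioxidant element TGANNNNGC was at 12 open (54.5%) and 34 closed members (39.1%), against 42.1% and 37.7%. The Ah receptor core TNGCGTG was at 0 open and 3 closed members (3.45%), against 7.74% and 2.28%. A match describes letters in the window and not binding.

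Footprints were present in the tallest promoter peak in both replicates at 20 of 22 open members (90.9%), against 95.3% of all open genes. The tallest promoter peaks of the members held 81 footprints in replicate 1 and 56 in replicate 2, of which 36 pairs overlapped, in 16 members. In Cyp4f37 a footprint in the internal exon held the word CCAGCAGGGGGC at chr17:32635237-32635248, which matches a core consensus of the insulator protein CTCF; that consensus was searched after the footprint had been seen. Within a 200-bp window at the tallest peak the core was found at 2 of 22 open members, Cyp4f37 and Ugt1a7c (9.09%), and at 481 of 13670 open genes (3.52%).

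Genes that serve P450 and Ugt enzymes are set beside the same 62.3% of all genes. All 15 genes for electron donors and haem supply were open in both replicates, among them Por, the reductase that feeds all microsomal P450 enzymes, with heights of 5.91 and 4.72. All 4 genes for the supply of UDP-glucuronic acid were open, with Ugp2 at 5.90 and 3.96 and Ugdh at 4.58 and 3.32.

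Of 12 sensors of foreign compounds, 10 (83.3%) were open, including Rxrb (6.52 and 4.97), Nfe2l2 (5.69 and 3.8), Ppara (4.03 and 2.99) and Ahr (2.53 and 1.73). The 2 without a peak were Nr1i2 and Nr1i3, which encode PXR and CAR, the receptors that induce Cyp3a and Cyp2b genes in liver. Of 10 liver factors, 2 were open in both replicates, Cebpa (4.95 and 3.81) and Nr5a2 (0.703 and 0.663). Foxa1, Foxa3, Onecut1 and Nr1h4 had a peak in 1 replicate, and Hnf4a, Foxa2 and Nr0b2 were among those with none.

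Other conjugating enzymes were open in 16 of 26 cases (61.5%), close to the 62.3% of all genes, led by Tpmt (6.26 and 4.47), Gstm1 (3.73 and 2.84), Mgst3 (3.89 and 2.49), Gsto1 (3.46 and 2.41) and Gstp1 (2.24 and 1.56). Those without a peak were Gsta1, Gsta3, Sult1a1, Sult1b1, Sult1e1, Sult2b1, Aldh3a1 and Ces1d. Of 11 drug carriers 8 (72.7%) were open, and Abcc2 and Slco1b2, carriers of the hepatocyte membrane, were among those that were not.

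The number of open members changed with the peak list and the start sites used. With the authors' stricter lists 15 members (12.7%) were open, against 55.0% of all genes, and Cyp17a1, Cyp1b1, Cyp2j13, Cyp2j6, Cyp2s1, Cyp4b1 and Ugt1a7c were lost. With the most upstream start site only, 19 members were open, against 56.5% of all genes, and Cyp17a1, Cyp1b1 and Cyp4f37 were lost. A window of 1000 bp added Cyp2w1.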

How the data were processed

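DNase-seq of urinary bladder was deposited for 2 biological replicates. The authors deposited, per replicate, a looser and a stricter peak list in mm10 whose height column is a signal of unstated scale. They also deposited stretches with a false discovery rate (a p-value type column, from 0 to 0.05) and footprint positions, per the file headers and values. The sources used here do not give the aligner, peak caller, versions or read depth, so no counting interval is printed and precision rests on the spread of 2 replicates. Peaks were called per replicate.

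Start sites came from GENCODE M21 and sequence from GRCm38.p6 as held by RefSeq; all peaks lay within its chromosome lengths. Genes on the mitochondrial genome were left out. A peak overlapping 500 bp on either side of a start site by at least 1 bp opened a gene. Shared regions were merged overlapping peaks of both replicates. Word uniqueness used 32-base words of chromosomes 1 to 19, X and Y. Local alignments used Biopython 1.88. Scripts ran in Python 3.11.15 with pandas 2.3.3 and pysam 0.24.0 and were tested on simulated peaks. No test was run, since there is 1 group.

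The text names every open member and every member with a peak in 1 replicate, the 8 members with most distal regions (and those tied with them), 20 reference members, clusters by first and last member, and in related lists up to 5 tallest genes and those without a peak. A few genes of the related lists and 1 motif are not reported here. Cyp4f16 and Cyp4f37 were aligned after their values were seen. Members and lists were chosen with earlier results of these data known. Alternatives were stricter lists, other windows, start sites and overlaps, and each replicate alone.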

Additional observations from a re-analysis of the deposited data

How the results depend on the processing

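Over all settings, 49 of 61 recomputed main values moved by less than the replicate spread or 1.5 times, and 12 moved more; none reversed. With the stricter peak lists the median height over open members was 1.51 (0.846 with the looser lists), 6 members of clusters were open (11), 17 members had a distal region (33), 32 distal regions remained (55), and the median density over clusters was 0.0219 shared regions per 10 kb (0.0590). With a 1000-bp window the median height was 1.02. Leaving out 1 replicate gave median heights from 0.665 to 0.843, from 42 to 61 members with a distal region, from 112 to 186 distal regions and median densities from 0.176 to 0.204, since peaks then need no partner. Open members were 25 with replicate 1 alone and 28 with replicate 2 alone. Without members that had a start site of another gene in the window of any of their start sites, 19 were open. That window need not be the one with the peak. With a cluster gap of 100 kb, 9 open members lay in clusters and 13 outside. No paired analysis was possible because there is 1 group only. The number of reads behind each height is unknown, so a closed promoter here means no listed peak, and weak open sites may be missed.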
